A study of Rattus norvegicus with 12 samples.

Results

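A set of 5 miRNAs often used as normalizers for serum or vesicle RNA is described here in rat serum exosomes. They are rno-miR-16-5p, rno-miR-191a-5p, rno-miR-103-3p, rno-miR-107-3p and rno-miR-26a-5p, and they were listed by name for that use. No threshold on their values was applied, although earlier results of these data were known when they were listed. All 5 were found in both deposited raw count tables. These tables list 3280 features, 411 of them mature miRNAs, for EGME and water, and 1709 features, 343 of them mature miRNAs, for CBZ and corn oil.

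The study looked for small RNAs in serum exosomes that mark injury of the testis, and measured them by small RNA sequencing in 12 libraries, 3 in each of 4 groups. All rats were male Sprague-Dawley animals of 9 weeks, and none of the labels gives a genetic change. The EGME group received 1 oral dose of ethylene glycol monomethyl ether, a glycol ether solvent, at 2000 mg/kg in water (10 mL/kg), and its control group received water. The CBZ group received 1 oral dose of the compound labelled CBZ at 400 mg/kg suspended in corn oil (5 mL/kg), and its control group received corn oil. Blood was drawn 24 h after dosing. Serum was cleared at 16500 g for 20 min, and 2.7 mL of it was pelleted at 208000 g in spins of 70 min, and the RNA of the pellet was turned into libraries with a NEBNext small RNA kit and sequenced on a MiSeq. The titles carry numbers and no statement that the numbered libraries are different rats, so each p-value is relative to the scatter of these libraries, which may be partly technical. In bulk RNA of a serum pellet, fewer releasing cells, fewer vesicles and less RNA per vesicle cannot be told apart.

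A miRNA guides Argonaute proteins to messenger RNAs, mainly through its seed, bases 2 to 8 from the 5′ end. Sequencing and PCR of serum give relative amounts, so a level is often stated against a reference miRNA that is assumed to be steady between samples. The miRNA miR-16 belongs to the miR-15 family, which represses cell cycle and survival genes, and it is abundant in blood cells, red cells among them. The miRNAs miR-103 and miR-107 are a near-identical pair carried in introns of pantothenate kinase genes and linked to lipid and insulin metabolism. The miRNA miR-26a lies in a gene of the CTDSP phosphatase family and is expressed in many tissues, and miR-191 is likewise widely expressed.

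The mature sequences are shown because they decide which of these miRNAs a read can be told apart from. They are those of RefSeq, build GRCr8, with the seed in capitals, and 2 seed relatives follow the 5 reference miRNAs.
rno-miR-16-5p: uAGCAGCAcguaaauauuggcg
rno-miR-191a-5p: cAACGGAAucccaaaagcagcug
rno-miR-103-3p: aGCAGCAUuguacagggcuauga
rno-miR-107-3p: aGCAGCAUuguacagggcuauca
rno-miR-26a-5p: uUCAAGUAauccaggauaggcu
rno-miR-15b-5p: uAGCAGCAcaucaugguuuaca
rno-miR-26b-5p: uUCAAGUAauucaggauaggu

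In GRCr8, rno-miR-16-5p lies at chr2:155555343-155555364 on the plus strand, within the span of Smc4. The RefSeq table places rno-miR-191a-5p at chr8:118142641-118142663 (plus strand, within Dalrd3) and rno-miR-26a-5p at chr8:127633063-127633084 (plus strand, within Ctdspl). The copy of rno-miR-103-3p in that table is at chr3:138963278-138963300 (plus strand, within Pank2). The sequence of rno-miR-107-3p is at chr1:241750431-241750453 (minus strand, within Pank1). The build the authors mapped to is not given in the sources used here. Over their 23 bases rno-miR-103-3p and rno-miR-107-3p differ at 1 position, G22C (the first base is that of rno-miR-103-3p, counted from 1 at its 5′ end). They share a seed with each other, and their first 7 bases are the same letters as bases 2 to 8 of rno-miR-16-5p, a seed shifted by 1 base. Because only base 22 tells rno-miR-103-3p and rno-miR-107-3p apart, and the rule for reads that match both is not given in the sources used here, the split of counts between them is uncertain. In RefSeq's rat set the seed of rno-miR-16-5p is held by 5 mature miRNAs, that of rno-miR-26a-5p by 2, and that of rno-miR-191a-5p by that miRNA alone.

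Depth was low and unequal. Assigned counts were 608892 to 1235814 per library for EGME and 858906 to 970329 for water, and 405976 to 443084 for CBZ and 196460 to 598200 for corn oil. Mature miRNAs took 15.5% to 28.1% of counts in EGME libraries and 17.6% to 25.6% in water libraries, and 17.3% to 22.8% in CBZ libraries and 14.7% to 26.4% in corn oil libraries. EGME library 2 had the most counts and the lowest miRNA share of its table, and corn oil library 2 was the shallowest of all. Levels are given below as CPM, a read count divided by the size of its library and multiplied by the same large constant for all. For a miRNA with no read, the limit of 3 counts lay between 2.43 and 15.3 CPM, depending on the library. As no molecular identifiers were used, an interval on a single library covers counting error only.

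The reference miRNAs fell into an abundant pair, a scarce pair and 1 near the detection limit. The raw counts of rno-miR-26a-5p were 6385, 3697 and 7749 in EGME libraries, against 6369, 4220 and 3620 in water libraries. They were 8326, 5098 and 5784 in CBZ libraries, against 4957, 1565 and 4404 in corn oil libraries. It ranked 3 to 7 by count among the mature miRNAs of every library.

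The counts of rno-miR-191a-5p were 1865, 2258 and 2667 in EGME libraries, against 2483, 1666 and 1274 in water libraries. They were 2298, 2043 and 2781 in CBZ libraries, against 1517, 786 and 1975 in corn oil libraries. It ranked 7 to 16, so this and rno-miR-26a-5p were the reference miRNAs with enough reads for counting error to be small.

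The scarce pair lay far lower in every library. The counts of rno-miR-103-3p were 80, 80 and 129 in EGME libraries, against 133, 124 and 72 in water libraries, and 53, 49 and 56 in CBZ libraries, against 51, 43 and 75 in corn oil libraries (rank 54 to 73). The counts of rno-miR-16-5p were 81, 51 and 92 in EGME libraries, against 109, 116 and 72 in water libraries, and 32, 35 and 49 in CBZ libraries, against 51, 14 and 36 in corn oil libraries (rank 62 to 83). So miR-16, the member best known from blood cells, held on average 0.0383% of miRNA counts in EGME, 0.0540% in water, 0.0463% in CBZ and 0.0475% in corn oil libraries.

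The last member, rno-miR-107-3p, had 4, 5 and 5 reads in EGME libraries, against 6, 4 and 5 in water libraries, and 3, 1 and 6 in CBZ libraries, against 5, 4 and 5 in corn oil libraries. In corn oil library 1 its 5 reads were 0.00865% of miRNA counts, with an exact 95% binomial (Clopper-Pearson) interval of 0.00281% to 0.0202%. At such counts a difference between groups was not detectable: the ratio of summed counts per scaled library size was 1.05 in EGME over water (0.467 to 2.32), and 0.576 in CBZ over corn oil (0.229 to 1.39). In brackets are exact 95% conditional binomial intervals on reads summed over the libraries of a group. They cover counting error only and leave out the scatter between libraries. Together the 5 miRNAs took 4.27% of miRNA counts in EGME and 3.61% in water libraries, and 10.3% in CBZ and 6.98% in corn oil libraries, mostly through rno-miR-26a-5p. The most abundant miRNA in every group was rno-miR-148a-3p, at 33.2% in EGME, 33.3% in water, 25.5% in CBZ and 36.2% in corn oil libraries.

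Seed and hairpin relatives were scarcer than the members they resemble. The miR-16 relative rno-miR-15b-5p, from the same cluster, had 12, 8 and 7 reads in EGME libraries and 17, 9 and 9 in water libraries, and 8, 6 and 12 in CBZ libraries and 5, 7 and 9 in corn oil libraries. The relatives rno-miR-195-5p, rno-miR-322-5p and rno-miR-497-5p had 0 to 3 reads in the libraries of each table that lists them. The relative rno-miR-26b-5p had 215, 162 and 252 reads in EGME libraries, against 313, 260 and 167 in water libraries, a log2 difference of -0.05 (edgeR adjusted p = 0.972). It had 198, 124 and 171 reads in CBZ libraries, against 134, 72 and 169 in corn oil libraries, a log2 difference of 0.05 (edgeR adjusted p = 0.881). The passenger strand rno-miR-191a-3p had 10, 8 and 21 reads in EGME libraries, against 5, 6 and 9 in water libraries, and 14, 14 and 21 in CBZ libraries, against 8, 5 and 13 in corn oil libraries. Only the CBZ table let it pass the count filter (log2 difference 0.60, edgeR adjusted p = 0.279).

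To compare libraries, counts were scaled to CPM with TMM, a factor from the trimmed mean of log ratios between libraries, separately in each table, so levels are compared only within a table. On this scale rno-miR-191a-5p was 2657, 2672 and 2725 CPM in EGME libraries, against 2581, 1796 and 1357 CPM in water libraries. All 3 EGME libraries lay above all 3 water libraries, and the EGME libraries were nearly equal (mean 2685 ± 35.4 CPM, against 1911 ± 620 CPM in water, SD, n = 3 each). On the library total the EGME libraries were not, at 3063, 1827 and 3073 CPM. With TMM rno-miR-191a-5p was 4907, 4824 and 6126 CPM in CBZ libraries, against 4215, 3911 and 3772 CPM in corn oil libraries, and these groups did not overlap either (5286 ± 729 against 3966 ± 227 CPM, SD, n = 3 each).

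The level of rno-miR-26a-5p was 7129 ± 2458 CPM in EGME and 5008 ± 1439 CPM in water libraries, and 14186 ± 3132 CPM in CBZ and 9990 ± 3290 CPM in corn oil libraries (SD, n = 3 each). In both comparisons the groups overlapped. EGME library 2, at 4374 CPM, lay below water libraries 1 and 2, and corn oil library 1, at 13773 CPM, lay above CBZ libraries 2 and 3.

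For rno-miR-103-3p the values were 114, 94.7 and 132 CPM in EGME libraries, against 138, 134 and 76.7 CPM in water libraries, with overlap. In the other comparison they were 113, 116 and 123 CPM in CBZ libraries, against 142, 214 and 143 CPM in corn oil libraries, so every CBZ library was below every corn oil library. For rno-miR-16-5p the groups overlapped in both comparisons, with 89.9 ± 27.8 CPM in EGME and 105 ± 25.2 CPM in water libraries, and 86.3 ± 20.1 CPM in CBZ and 93.4 ± 41.9 CPM in corn oil libraries (SD, n = 3 each).

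**Figure D1:**
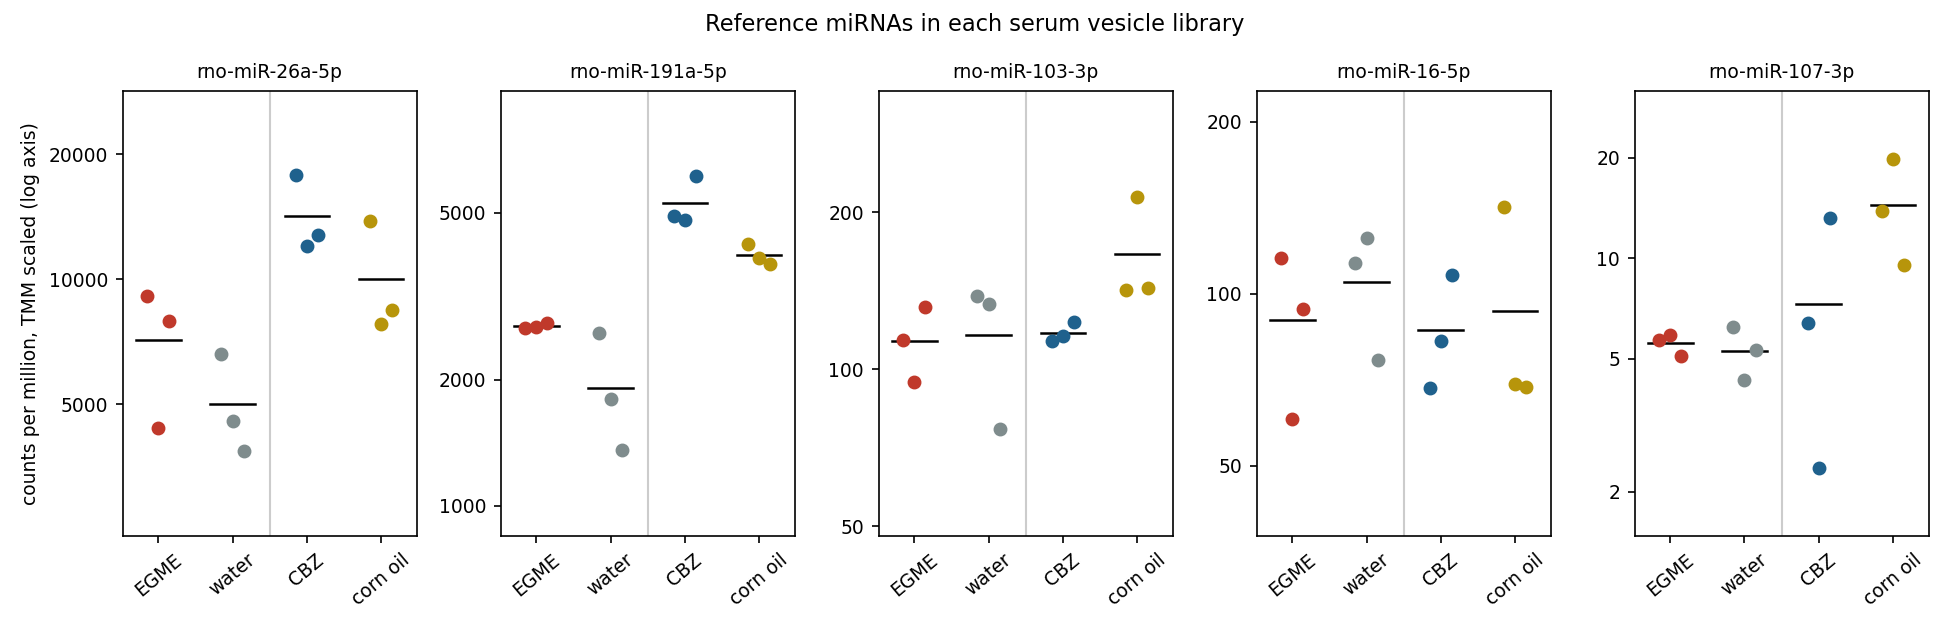
Level of each reference miRNA in every library (CPM, TMM scaled within each table, log axis with its own range in each panel). Points are single libraries and bars are group means (n = 3). For rno-miR-191a-5p every EGME point lies above every water point and every CBZ point above every corn oil point, while rno-miR-107-3p stays between 2.36 and 19.9 CPM throughout.

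The absence of overlap is common here and must be read against the other features. On the TMM scale 61 of 330 tested features (18.5%) did not overlap between EGME and water, and 85 of 244 (34.8%) did not overlap between CBZ and corn oil. With TMM computed among mature miRNAs, 30 of 136 miRNAs (22.1%) did not overlap between EGME and water, with rno-miR-191a-5p as the only 1 of the 4 filtered reference miRNAs, and 36 of 111 (32.4%) did not overlap between CBZ and corn oil, with rno-miR-191a-5p and rno-miR-103-3p. Scaled to the library total, rno-miR-191a-5p overlapped between EGME and water. It overlapped between CBZ and corn oil with DESeq2 size factors, upper quartile scaling and the miRNA total. The groups of rno-miR-103-3p overlapped between CBZ and corn oil with upper quartile scaling and with either total.

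The spread within groups was next set against counting error. The pooled within-group SD of log2(CPM + 1) over the EGME and water libraries was 0.33 for rno-miR-191a-5p, 0.37 for rno-miR-103-3p, 0.42 for rno-miR-16-5p and 0.49 for rno-miR-26a-5p. The median over the 136 tested miRNAs was 0.39, and the 4 ranked 48, 60, 85 and 100 from the steadiest. Over the CBZ and corn oil libraries the SD was 0.15 for rno-miR-191a-5p, 0.24 for rno-miR-103-3p, 0.38 for rno-miR-26a-5p and 0.48 for rno-miR-16-5p. There the median of 111 miRNAs was 0.34, and the ranks were 9, 31, 68 and 81.

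With TMM, rno-miR-191a-5p thus had the smallest spread of the 4 in both tables, and rno-miR-26a-5p and rno-miR-16-5p lay above the median miRNA in both. Counting alone would give an SD of only 0.021 for rno-miR-26a-5p in the EGME and water libraries and 0.023 in the CBZ and corn oil libraries, so nearly all of its spread lay between libraries. For rno-miR-16-5p counting alone would give 0.16 and 0.26, and for rno-miR-103-3p 0.15 and 0.20, in the same order of tables. For rno-miR-107-3p counting alone gives 0.66 and 0.86, above its measured 0.17 and 0.82, so its spread carries no information on stability.

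**Figure D2:**
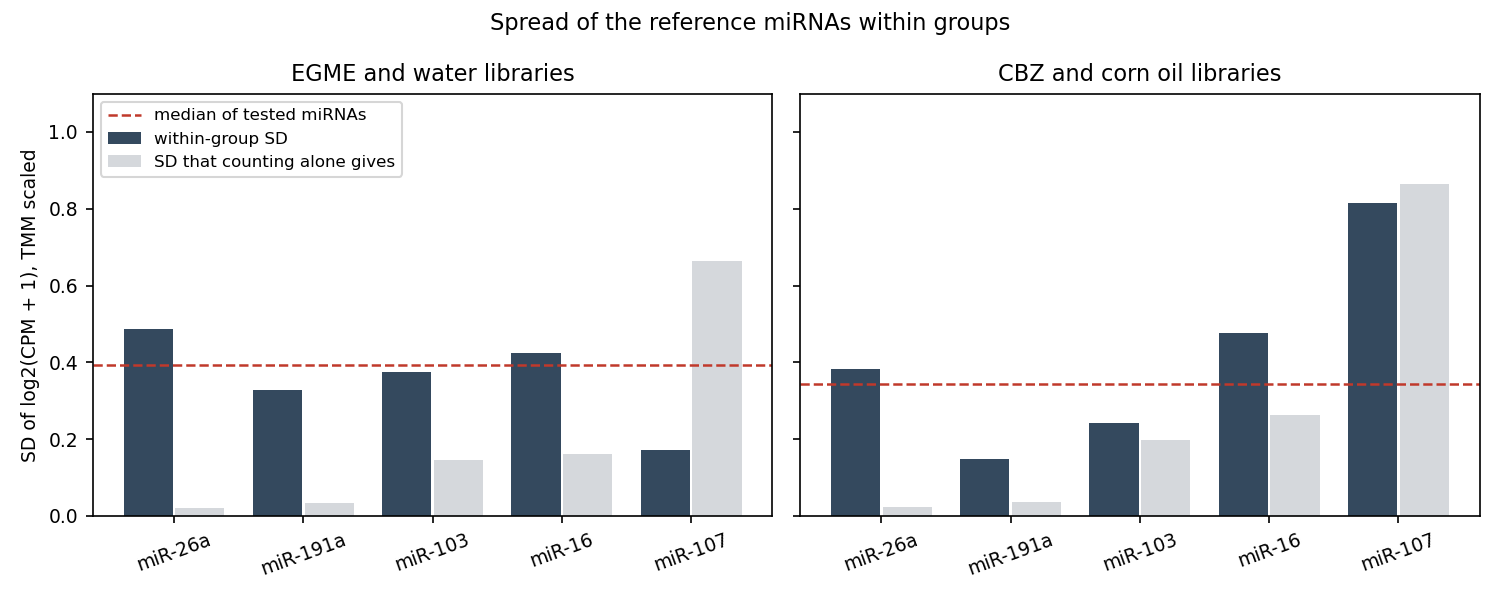
Pooled within-group SD of log2(CPM + 1) for each reference miRNA (dark bars), the SD that counting reads alone gives (light bars) and the median of all tested miRNAs (dashed line), for the EGME table on the left and the CBZ table on the right. For rno-miR-26a-5p the dark bar is 0.49 and 0.38 beside a counting SD near 0, and for rno-miR-107-3p the light bar is above the dark one.

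How steady each looked depended on the scaling. With the miRNA total, the SD of rno-miR-191a-5p in the EGME and water libraries was 0.15 (rank 7 of 136), and with the library total it was 0.45 (rank 48). In the CBZ and corn oil libraries the order was the other way round, with 0.38 (rank 48 of 111) on the miRNA total and 0.21 (rank 19) on the library total. The SD of rno-miR-16-5p was 0.76 on the miRNA total in the CBZ and corn oil libraries, against 0.48 with TMM. The SD of rno-miR-26a-5p was 0.76 on the library total in the EGME and water libraries, against 0.49 with TMM. In the CBZ and corn oil libraries the SD of rno-miR-103-3p was below that of rno-miR-191a-5p on the miRNA total (0.29 against 0.38) and with upper quartile scaling (0.26 against 0.27). Counting alone gives 0.20 for rno-miR-103-3p and 0.036 for rno-miR-191a-5p there. Single libraries also set the order, with TMM. Without EGME library 2 the SD in that table was 0.38 for rno-miR-191a-5p, above 0.32 for rno-miR-16-5p and 0.34 for rno-miR-26a-5p. Without water library 1 or 3 the SD of rno-miR-191a-5p was 0.17 and 0.21, and without water library 3 that of rno-miR-103-3p was 0.19, the lower of both. Without corn oil library 2 the SD of rno-miR-103-3p was 0.053, below the 0.17 of rno-miR-191a-5p. As 0.053 is also below the 0.20 that counting alone gives for rno-miR-103-3p in that table, it does not show a steadier level. Without corn oil library 1 the SD was 0.27 for rno-miR-16-5p and 0.25 for rno-miR-26a-5p, and without CBZ library 3 it was 0.067 for rno-miR-191a-5p. Which of the 4 had the lowest SD therefore changed with the library left out.

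Other miRNAs used as references give a yardstick. Of a list of 52 further ones, 43 were tested in both tables, and their median SD over both tables was 0.34. Among these and the 4 members, rno-miR-191a-5p ranked 11 of 47 from the steadiest (SD 0.26), rno-miR-103-3p 19 (0.32), rno-miR-26a-5p 37 (0.44) and rno-miR-16-5p 38 (0.45). With TMM, and going by the spread within groups alone, the lowest SDs were those of rno-miR-25-3p, of the miR-106b-25 cluster (0.13), rno-miR-146a-5p, linked to inflammatory signalling (0.15), and rno-miR-92a-3p, of the miR-17-92 cluster (0.20). These SDs were not set against counting error. For rno-miR-146a-5p the SD was 0.10 in the CBZ and corn oil libraries, with 49 to 145 reads. At such counts a low SD need not show a steadier level. A low SD within groups says nothing of the difference between them, which for rno-miR-25-3p was 0.57 on the log2 scale in EGME against water (edgeR adjusted p = 0.415). The highest SDs were those of rno-miR-106b-5p (0.71), rno-miR-320-3p (0.62) and rno-miR-128-3p, enriched in brain (0.61). That of rno-miR-106b-5p was 0.95 in the EGME and water libraries, with 8 to 42 reads. It was 0.32 in the CBZ and corn oil libraries, with 8 to 25 reads, and counting error is not small at such counts. In EGME against water 32 of the 43 listed miRNAs tested there were higher and 11 lower, with a median log2 difference of 0.21, against -0.02 over all features. The mature miRNAs that passed the filter themselves had a median of 0.16 on the TMM scale, and of -0.12 on the miRNA total. In CBZ against corn oil 25 of 44 were higher and 19 lower, with a median of 0.08, against 0.12 over all features. In the edgeR fit of all features none of them was called in either comparison. In the edgeR fit of mature miRNAs alone, with TMM, 6 were called in EGME against water, 5 higher and 1 lower, where 9.22% of all miRNAs tested were called. In CBZ against corn oil 10 were called, 6 higher and 4 lower, where the share of all miRNAs was 11.3%.

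The comparison of EGME with water asked whether the references moved with the toxicant. In edgeR's quasi-likelihood test over all features, 0 of 330 were called at an adjusted p under 0.05 (0%), 59 had an unadjusted p under 0.05, DESeq2's Wald test called 20 and limma on the authors' normalized values called 11. None of the 4 tested members was called by any of them. The log2 difference was 0.51 for rno-miR-26a-5p (SE 0.43, 95% interval -0.42 to 1.44, edgeR adjusted p = 0.557) and 0.49 for rno-miR-191a-5p (SE 0.35, interval -0.28 to 1.26, edgeR adjusted p = 0.475). It was -0.03 for rno-miR-103-3p (SE 0.34, interval -0.77 to 0.70, edgeR adjusted p = 0.981) and -0.23 for rno-miR-16-5p (SE 0.35, interval -0.995 to 0.543, edgeR adjusted p = 0.774). Each interval holds 0 and also holds a difference of 0.5 in at least 1 direction, so these data do not show the 4 to be equal between EGME and water.

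CBZ against corn oil gave a like picture. Of 244 features edgeR called 0 (0%), 64 had an unadjusted p under 0.05, DESeq2's Wald test called 24 and limma 0, no member among them. The log2 difference was 0.51 for rno-miR-26a-5p (SE 0.34, interval -0.32 to 1.34, edgeR adjusted p = 0.366) and 0.41 for rno-miR-191a-5p (SE 0.27, interval -0.24 to 1.06, edgeR adjusted p = 0.366). It was -0.49 for rno-miR-103-3p (SE 0.26, interval -1.13 to 0.15, edgeR adjusted p = 0.289) and -0.12 for rno-miR-16-5p (SE 0.40, interval -1.08 to 0.84, edgeR adjusted p = 0.859).

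The difference between both effects, EGME minus CBZ, was fitted over all 12 libraries and called 0 of 327 features (0%) with edgeR. In that fit 81 features had an unadjusted p under 0.05, and DESeq2's Wald test called 32, with no member called by either. The median over all features was 0.24, and the value was -0.00 for rno-miR-16-5p (SE 0.62), 0.53 for rno-miR-103-3p (SE 0.50), 0.13 for rno-miR-191a-5p (SE 0.52) and 0.11 for rno-miR-26a-5p (SE 0.62), with edgeR adjusted p from 0.528 to 1.00.

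Across scalings not set by a reference miRNA, the sign of a difference held for the abundant pair and not for all of the scarce pair. Scaled to rno-miR-26a-5p, the difference of rno-miR-191a-5p was negative in CBZ against corn oil. For rno-miR-26a-5p and rno-miR-191a-5p it was positive in both comparisons with TMM, DESeq2 size factors, upper quartile scaling, the library total, the miRNA total and TMM among miRNAs alone. For rno-miR-103-3p in EGME against water it was 0.058 with DESeq2 size factors and 0.28 with upper quartile scaling, and for rno-miR-16-5p it was 0.11 with upper quartile scaling. These scalings also moved the median over all features, to 0.07 and 0.31 against -0.02 with TMM, so both miRNAs stayed below the median feature. For rno-miR-16-5p in CBZ against corn oil it was 0.086 with the library total, where the median feature was at 0.32, against 0.12 with TMM.

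**Figure D3:**
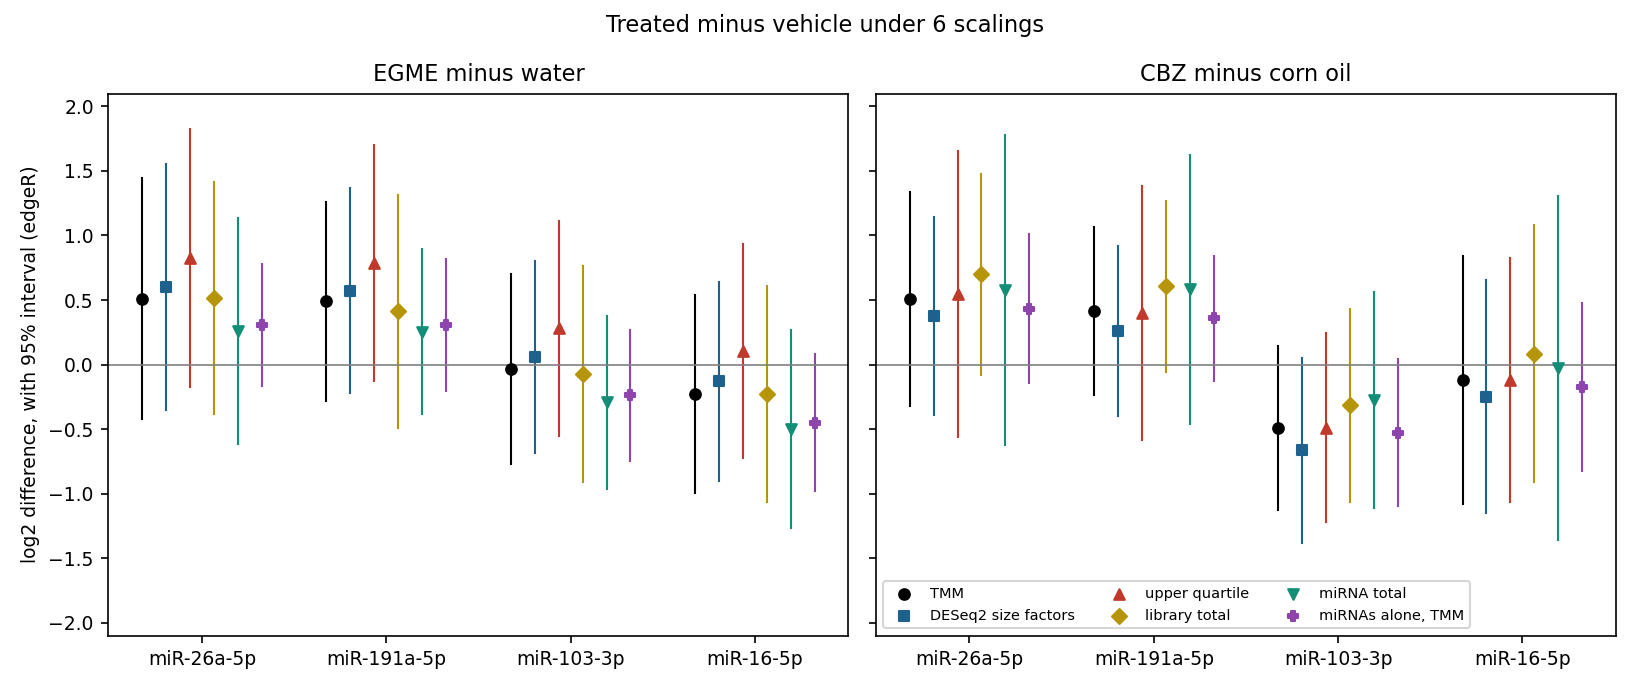
Log2 difference of 4 reference miRNAs under 6 scalings, EGME minus water on the left and CBZ minus corn oil on the right (edgeR, bars are 95% intervals, n = 3 libraries per group). All intervals hold 0, the points of rno-miR-26a-5p and rno-miR-191a-5p are all above 0, and those of rno-miR-103-3p are all below 0 for CBZ only.

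A ratio of counts within a library needs no scaling, so the 10 pairs of members were compared directly. Ratios of counts of different miRNAs also reflect how well each is captured, so only their difference between groups was read. The log2 ratio of rno-miR-191a-5p over rno-miR-103-3p was 4.54, 4.82 and 4.37 in EGME libraries, against 4.22, 3.75 and 4.15 in water libraries. It was 5.44, 5.38 and 5.63 in CBZ libraries, against 4.89, 4.19 and 4.72 in corn oil libraries. Every treated library was above every vehicle library in both comparisons, by 0.54 and 0.88 on average.

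The log2 ratio of rno-miR-16-5p over rno-miR-191a-5p was -4.53, -5.47 and -4.86 in EGME libraries, against -4.51, -3.84 and -4.15 in water libraries, a mean difference of -0.78. It was -6.17, -5.87 and -5.83 in CBZ libraries, against -4.89, -5.81 and -5.78 in corn oil libraries, a mean difference of -0.46. The groups did not overlap in either comparison, although EGME library 1 and water library 1 were nearly equal, as were CBZ library 3 and corn oil library 2.

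The ratio of rno-miR-191a-5p over rno-miR-107-3p was also higher in every EGME and every CBZ library (mean log2 difference 0.45 and 1.65), but it rests on 1 to 6 reads. In EGME against water the ratio of rno-miR-16-5p over rno-miR-26a-5p was lower in every EGME library (-0.72), and in CBZ against corn oil that of rno-miR-103-3p over rno-miR-26a-5p was lower in every CBZ library (-1.01). Thus 4 of 10 pairs did not overlap in each comparison. Among all pairs of tested miRNAs with a read in every library, 2162 of 9180 (23.6%) did not overlap between EGME and water and 1738 of 5995 (29.0%) between CBZ and corn oil. Each of these member pairs had an exact two-sided permutation p = 0.1, the smallest that 3 libraries against 3 allow, and pairs that share a miRNA are not independent. Pairs with rno-miR-107-3p lie outside this background, since it was not among the tested miRNAs. Leaving out EGME library 2 gave 7 pairs without overlap, and leaving out CBZ library 3 or corn oil library 1 gave 8 and 7. With fewer libraries groups overlap less readily, and the share over all pairs was not computed for these cases, so these counts are not read as stronger. The mean log2 ratio of rno-miR-191a-5p over rno-miR-26a-5p differed by 0.06 in EGME against water (exact permutation p = 1) and by -0.12 in CBZ against corn oil (exact permutation p = 0.6), the smallest difference of the 10 pairs in each comparison.

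**Figure D4:**
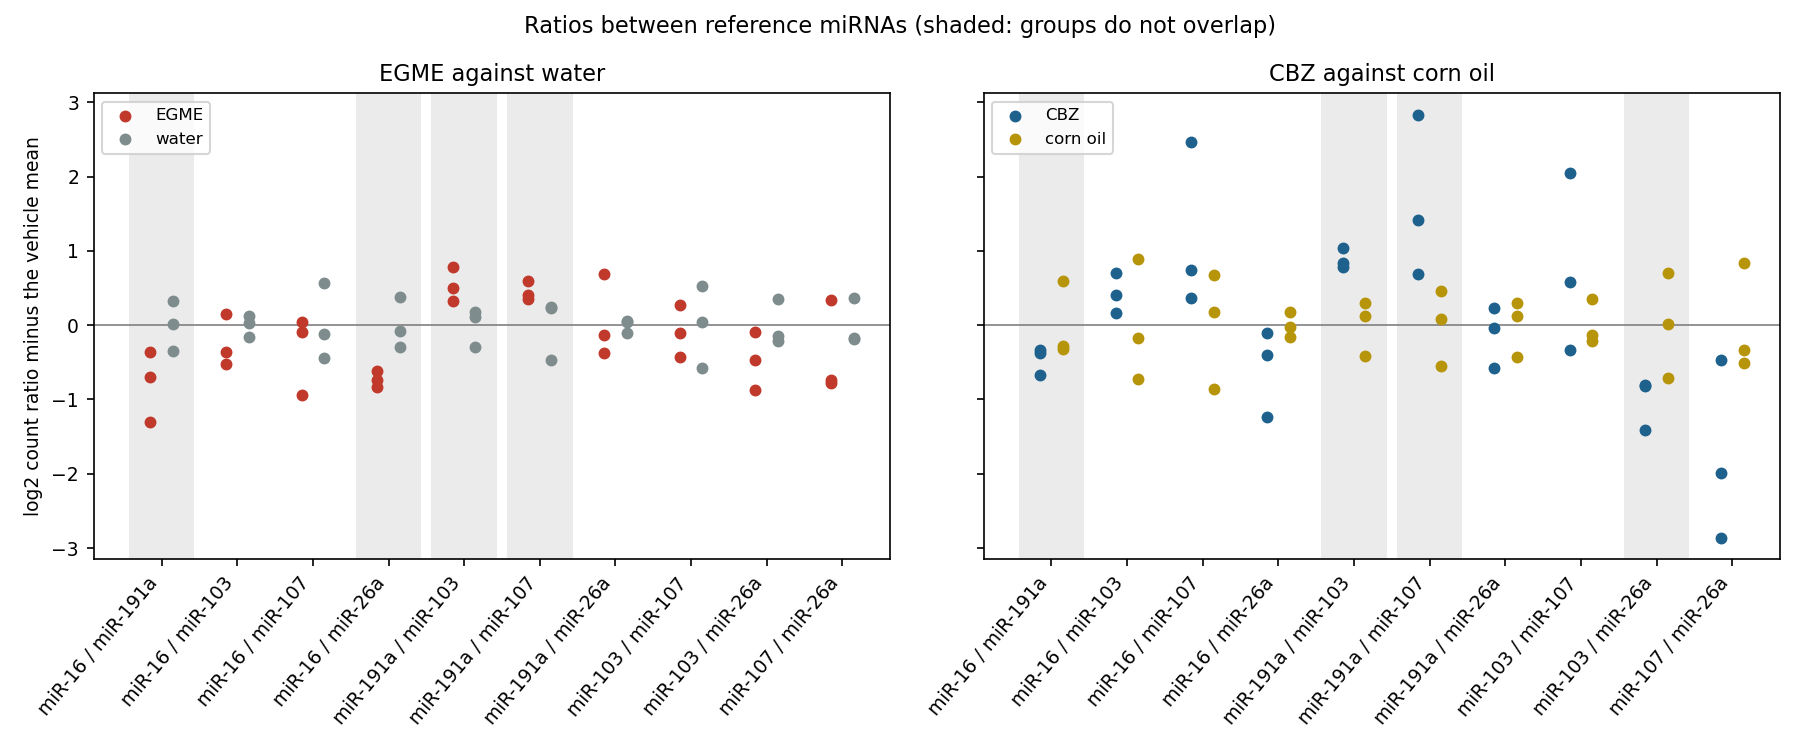
Log2 count ratio of each pair of reference miRNAs in every library, minus the mean of the vehicle libraries, with EGME and water on the left and CBZ and corn oil on the right. Shading marks the 4 pairs per comparison whose groups do not overlap, and 3 of them, all with rno-miR-191a-5p, are shaded on both sides.

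The choice of reference changed which miRNAs were called. Mature miRNAs were fitted alone, with edgeR and an adjusted p under 0.05, and the libraries were scaled to each member in turn, the member itself being left out. The fit takes each scale as known, so counting error in the reference enters every difference. That error is largest for rno-miR-107-3p, with 1 to 6 reads per library, which is also part of the geometric mean of all 5. In EGME against water, TMM called 13 of 141 miRNAs (9.22%), 8 higher and 5 lower. Scaling to rno-miR-16-5p called 10 of 140 (7.14%), all higher, while scaling to rno-miR-191a-5p called 13 of 140 (9.29%), 2 higher and 11 lower. With rno-miR-103-3p as the scale 0 of 140 were called (0%), and 24 had an unadjusted p under 0.05. Scaling to rno-miR-26a-5p called 1 of 140 (0.714%), which was lower, and scaling to rno-miR-107-3p called 7 of 141 (4.96%), 6 higher and 1 lower. The geometric mean of all 5 called 4 of 141 (2.84%), 3 higher and 1 lower.

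The median log2 difference over miRNAs moved with it, to 0.45 when scaled to rno-miR-16-5p and to -0.40 when scaled to rno-miR-191a-5p, against -0.08 with TMM. Of the 13 miRNAs called with TMM, 7 were also called with rno-miR-16-5p, 7 with rno-miR-191a-5p and 7 with rno-miR-107-3p, and none of the shared calls changed direction. Named after their values were seen, rno-miR-128-3p, rno-miR-423-5p and rno-miR-215, a relative of miR-192, were each called in 5 of the 7 scalings. The log2 difference of rno-miR-128-3p ranged from 1.13 (scaled to rno-miR-26a-5p, edgeR adjusted p = 0.116) to 1.77 (scaled to rno-miR-16-5p, edgeR adjusted p = 0.00244). That of rno-miR-215 ranged from -1.61 (scaled to rno-miR-191a-5p, edgeR adjusted p = 0.00178) to -0.79 (scaled to rno-miR-16-5p, edgeR adjusted p = 0.228).

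In CBZ against corn oil, TMM called 13 of 115 miRNAs (11.3%), 9 higher and 4 lower. Scaling to rno-miR-103-3p called 17 of 114 (14.9%), all higher, and scaling to rno-miR-26a-5p called 9 of 114 (7.89%), all lower. Scaling to rno-miR-191a-5p called 7 of 114 (6.14%), 1 higher and 6 lower. With rno-miR-16-5p as the scale 0 of 114 were called (0%), and 6 had an unadjusted p under 0.05. With rno-miR-107-3p as the scale 0 of 115 were called (0%), and 37 had an unadjusted p under 0.05. The geometric mean of all 5 called 4 of 115 (3.48%), all higher.

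The median log2 difference over miRNAs was 0.52 when scaled to rno-miR-103-3p, -0.45 when scaled to rno-miR-26a-5p and 1.52 when scaled to rno-miR-107-3p, against 0.03 with TMM. Of the 13 miRNAs called with TMM, 9 were also called with rno-miR-103-3p, 5 with rno-miR-191a-5p and 4 with rno-miR-26a-5p, in the same direction. Also named after its values were seen, rno-miR-423-5p was called in 4 of 7 scalings, with a log2 difference from 1.03 (scaled to rno-miR-26a-5p, edgeR adjusted p = 0.0929) to 2.96 (scaled to rno-miR-107-3p, edgeR adjusted p = 0.118). The red cell miRNA rno-miR-451-5p was at -1.44 when scaled to rno-miR-26a-5p (edgeR adjusted p = 0.0129), at -0.43 when scaled to rno-miR-103-3p (edgeR adjusted p = 0.384) and at 0.65 when scaled to rno-miR-107-3p (edgeR adjusted p = 0.513). All values scaled to rno-miR-107-3p rest on 1 to 6 reads of it per library.

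**Figure D5:**
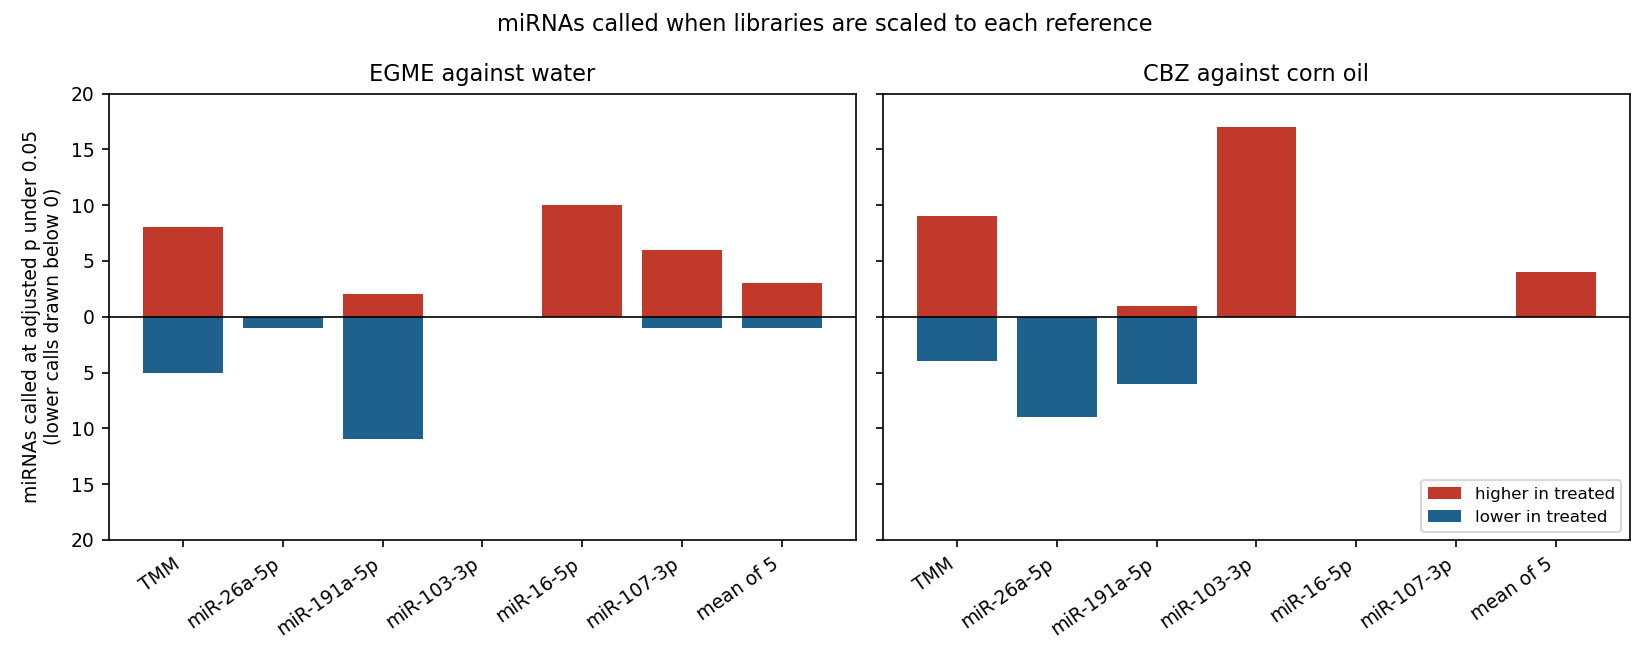
Number of mature miRNAs called by edgeR at an adjusted p under 0.05 when libraries are scaled with TMM, to each reference miRNA or to the geometric mean of all 5, with calls higher in treated libraries above 0 and lower ones below. Scaling to rno-miR-191a-5p gives mostly lower calls on both sides, while rno-miR-16-5p gives 10 higher calls for EGME and 0 for CBZ and rno-miR-103-3p gives 0 for EGME and 17 higher calls for CBZ.

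Across the 12 libraries, after the mean of each table was subtracted, the members did not follow one pattern. As a description over libraries that share tables and groups, the Pearson r of log2 levels was 0.67 between rno-miR-191a-5p and rno-miR-26a-5p, 0.43 between rno-miR-16-5p and rno-miR-26a-5p, 0.27 between rno-miR-16-5p and rno-miR-103-3p and -0.05 between rno-miR-103-3p and rno-miR-26a-5p. The median r with all other miRNAs was 0.26 for rno-miR-191a-5p, 0.30 for rno-miR-26a-5p, 0.08 for rno-miR-103-3p and 0.04 for rno-miR-16-5p. By r, rno-miR-191a-5p and rno-miR-26a-5p each ranked only 17 among the miRNAs nearest to the other. Of the 108 miRNAs tested in both tables, those nearest to rno-miR-191a-5p were rno-miR-339-5p (0.87), rno-miR-92a-3p (0.86) and rno-miR-99b-5p (0.84). Nearest to rno-miR-26a-5p were rno-let-7d-5p (0.93), rno-miR-27a-5p (0.81) and rno-let-7b-5p (0.79). Nearest to rno-miR-103-3p were rno-miR-142-3p, typical of blood-forming cells (0.87), rno-miR-1839-5p (0.81) and rno-miR-425-5p (0.80). Nearest to rno-miR-16-5p were rno-miR-30e-5p (0.64), rno-miR-101a-3p (0.61) and rno-miR-17-5p (0.60), the weakest likeness of the 4.

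Since miR-16 is abundant in red cells, red cell miRNAs were read beside it. All 8 listed red cell miRNAs, 4 of which are also on the list of further references, were tested in both tables, and the edgeR fit of all features called none. In the fit of mature miRNAs alone, with TMM, 2 were called lower in CBZ against corn oil, rno-miR-451-5p and rno-miR-185-5p, and 0 in EGME against water. Of all miRNAs tested in that fit, 11.3% were called in CBZ against corn oil and 9.22% in EGME against water. The summed level of the 8 red cell miRNAs was 27873 to 32474 CPM in EGME and 20565 to 20746 CPM in water libraries, and 19056 to 19212 CPM in CBZ and 22696 to 24778 CPM in corn oil libraries. The sums did not overlap between groups in either comparison, higher in EGME than in water and lower in CBZ than in corn oil. Of single tested features, 18.5% did not overlap between EGME and water and 34.8% between CBZ and corn oil. No such share was computed for sums of miRNAs. Most of the sum was rno-miR-486, with 14688, 18792 and 17043 reads in EGME libraries, against 11229, 10971 and 11569 in water libraries. By members, 5 of the 8 were higher and 3 lower in EGME against water (median log2 difference 0.09, against -0.02 over all features), rno-miR-451-5p among the lower ones at -0.17. In CBZ against corn oil 1 was higher and 7 lower (median -0.48, against 0.12 over all features). The defining rno-miR-451-5p had 2375, 2036 and 2246 reads in EGME libraries, against 3074, 3145 and 2377 in water libraries, and 520, 501 and 476 in CBZ libraries, against 625, 368 and 1316 in corn oil libraries. The log2 ratio of rno-miR-451-5p over rno-miR-23a-3p, used as a haemolysis index, was 4.61, 3.26 and 3.56 in EGME libraries, against 3.27, 3.86 and 3.65 in water libraries, with overlap. It was 2.55, 2.61 and 1.81 in CBZ libraries, against 3.62, 3.88 and 3.04 in corn oil libraries, lower in every CBZ library. Of all pair ratios of tested miRNAs, 29% did not overlap in that comparison. The part of red cell RNA in the values of rno-miR-16-5p was not tested.

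Platelet, liver and germ cell lists were read in the same way. Of 6 platelet miRNAs 5 were tested and none called in the edgeR fit of all features, with sums of 5104 to 7725 CPM in EGME and 4104 to 6660 CPM in water libraries, and 5945 to 8087 CPM in CBZ and 5460 to 8081 CPM in corn oil libraries. In the fit of mature miRNAs alone, with TMM, 3 platelet miRNAs were called in CBZ against corn oil, rno-miR-126a-3p and rno-miR-24-3p higher and rno-miR-223-3p lower, and 0 in EGME against water. The share of all miRNAs called in that fit was 11.3% in CBZ against corn oil and 9.22% in EGME against water. Of 3 liver miRNAs 2 were tested and none called in either of these fits, with sums of 1235 to 2101 CPM in EGME and 701 to 1990 CPM in water libraries, and 1328 to 3784 CPM in CBZ and 1037 to 1443 CPM in corn oil libraries. Of the 7 scalings described above, 1 called rno-miR-122-5p in EGME against water and 2 called it in CBZ against corn oil. Across these scalings the share of all miRNAs called was 0% to 9.29% in EGME against water and 0% to 14.9% in CBZ against corn oil. None of the 15 germ cell miRNAs passed the filter. Of them, 10 were listed for EGME and water and 5 for CBZ and corn oil. Their sums were 18.9 to 21.5 CPM in EGME and 12.8 to 17.7 CPM in water libraries, without overlap. They were 2.36 to 6.61 CPM in CBZ and 3.82 to 9.95 CPM in corn oil libraries, with overlap. The sums rest on few reads, with 3 to 9 of rno-miR-34c-5p per EGME or water library. Of single tested features, 18.5% did not overlap between EGME and water, and no share was computed for sums. The part of these cells in the differences of the reference miRNAs was not tested.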

How the data were processed

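Small RNA was measured in 12 libraries of rat serum exosomes, assigned to groups by their titles. The authors deposited raw counts of reads per feature, 1 table per toxicant with its vehicle, and a table of normalized signal per comparison. Within each library that signal is the raw count times 1 constant. The submitters' processing notes name edgeR, with no version. No aligner, genome build or rule for reads matching several features is stated in the labels.

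Each count table was fitted separately over all its features in edgeR 4.0.16 under R 4.3.3 (robust quasi-likelihood, TMM, filterByExpr with a minimum count of 10). The threshold was an adjusted p of 0.05 (Benjamini-Hochberg), two-sided. The filter left 4 of the 5 members in each table and removed rno-miR-107-3p. The difference of both effects was fitted over 1334 features named in both tables. Levels per library are TMM-scaled CPM, and spread is the SD of log2(CPM + 1). Pair ratios were compared by an exact permutation test (SciPy).

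The alternatives were DESeq2 1.42.0 size factors and its Wald test, upper quartile, library total, miRNA total and each member as scale, other filters, limma 3.58.1 on log2 of the authors' normalized signal plus 1, a joint fit of the 12 libraries, a fit of miRNAs only, a block on replicate number, and each library left out. The geometric mean of the 4 members other than rno-miR-107-3p was added after seeing the data. The fits were tested on simulated data. No pair of libraries within a group agreed within counting noise (chi-square over its degrees of freedom at least 21.6), so all 12 were kept. The members and lists were chosen with earlier results of these data known. Named in the text are the 5 members, the 3 miRNAs most alike each, the relatives and the marker lists. Also named are the 3 lowest and 3 highest in SD of 43 further references, and a few miRNAs chosen after their values were seen. Sequences are from RefSeq, GRCr8.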

Additional observations from a re-analysis of the deposited data

How the results depend on the processing

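No member was called under any setting run, in either comparison or in their difference. The number of features called moved more. In EGME against water it was 0 with TMM, 34 with upper quartile scaling, 27 with the library total, 14 with rno-miR-191a-5p or rno-miR-107-3p as scale, 12 with no filter, 14 with 10 counts in 3 libraries, 20 with DESeq2's Wald test, 11 with limma, and 0 to 60 with 1 library left out (60 without EGME library 2, 1 without water library 3). Among miRNAs alone it was 13 with TMM, 10, 13, 7 and 1 with rno-miR-16-5p, rno-miR-191a-5p, rno-miR-107-3p and rno-miR-26a-5p as scale, 4 with the geometric mean of 5 and 0 with that of 4. In CBZ against corn oil it was 0 with TMM, 4 with the library total, 11 with rno-miR-107-3p as scale, 21 with no filter, 24 with DESeq2's Wald test, 17 with all 12 libraries in 1 fit, and 0 to 26 with 1 library left out (26 without corn oil library 2). Among miRNAs alone it was 13 with TMM, 7, 17 and 9 with rno-miR-191a-5p, rno-miR-103-3p and rno-miR-26a-5p as scale, 4 with the geometric mean of 5 and 1 with that of 4. For the difference between both effects it was 0 with TMM, 25 with DESeq2 size factors, 28 with the library total, 39 with no filter, 14 with 10 counts in 3 libraries, 32 with DESeq2's Wald test, and 0 to 57 with 1 library left out (57, 37 and 42 without corn oil library 1, 2 or 3, 20 without EGME library 2, 22 without CBZ library 1). The cause was not tested.

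With the replicate block edgeR called 33 features in EGME against water 0 in CBZ against corn oil and 11 for the difference between both effects, and no member. Same-numbered libraries correlated at 0.45, 0.42 and -0.13 for EGME and water and at -0.21, -0.03 and 0.31 for CBZ and corn oil, and the labels state no pairing, so the numbers were not taken to pair the libraries.

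Log2 differences changed sign as follows, none of them called. For rno-miR-16-5p in EGME against water it was 0.11 with upper quartile scaling, and -0.32 to 0.031 with 1 library left out. For rno-miR-103-3p there it was 0.058 with DESeq2 size factors and with its Wald test, 0.061 with all 12 libraries, 0.28 with upper quartile scaling, 0.26 scaled to rno-miR-16-5p, and -0.15 to 0.25 with 1 library left out. In CBZ against corn oil rno-miR-16-5p was at 0.086 with the library total, 0.28, 1.32 and 0.076 scaled to rno-miR-103-3p, rno-miR-107-3p and the geometric mean of 5, and -0.35 to 0.33 with 1 library left out. There rno-miR-191a-5p was at -0.12 scaled to rno-miR-26a-5p, and rno-miR-103-3p at 1.05 scaled to rno-miR-107-3p. Pair ratios without overlap numbered 4 to 7 of 10 in EGME against water (7 without EGME library 2) and 4 to 8 in CBZ against corn oil (8 without CBZ library 3, 7 without corn oil library 1). With a library left out groups overlap less readily, and no share over all pairs was computed for it. Depth limits rno-miR-107-3p, which the count filter removed from both comparisons. With no filter its log2 difference was 0.00 in EGME against water and -0.78 in CBZ against corn oil.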
